A study of Mus musculus with 2 samples.

Results

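The mitochondrial ribosomal protein genes of epididymal white adipose tissue, the fat pad beside the epididymis of male mice, are described here in a knockout of Ppard, the gene of the nuclear receptor PPARβ/δ, and in wild-type controls. Members were the probe sets for which the array annotation gave 1 gene symbol, beginning with Mrpl or Mrps and a number. This took 127 of 22690 probe sets and 74 of 12394 genes, of which 47 were Mrpl genes and 27 Mrps genes. Each genotype was represented by the pooled RNA of 5 animals on 1 Affymetrix array, so each gene had 1 wild-type and 1 knockout value. All animals were male and ate standard chow. The wild-type animals were 12 to 16 weeks old and labelled strain 129S1/SvJae, whereas the design text calls them littermates of the knockouts. The PPARb/d knockout animals were 12 weeks old and on a mixed Sv129/C57BL/6 background, so strain and genotype cannot be told apart if the label of the wild-type sample holds. Without replicate arrays there is no spread and no test of genotype, and every difference below describes these 2 arrays. In whole tissue, fewer cells of a type and less RNA per cell cannot be told apart.

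Mitochondria carry their own ribosomes, which translate only the few proteins encoded by mitochondrial DNA, all of them core subunits of the respiratory chain and ATP synthase. The ribosomal RNAs come from mitochondrial DNA, while in mammals every protein of the mitoribosome is encoded in the nucleus, made in the cytosol and imported. Part of these proteins descend from the bacterial ribosome, and others were added in the mitochondrial lineage. Adipocytes depend on mitochondria for fatty acid oxidation and for the acetyl-CoA used in lipid synthesis.

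Across the mitochondrial ribosomal protein genes the 2 pools differed little. A gene was kept when at least 1 of its probe sets reached an intensity of 32 (log2 5) on at least 1 array, and was represented by its kept probe set of highest mean. Of the 74 genes 69 were kept. Their median difference, log2 knockout minus log2 wild type, was -0.07, and 39 were lower and 30 higher. Over all 6533 kept genes the median was -0.08 and 55.5% were lower. Differences of the mitoribosomal genes lay closer together, with quartiles of -0.36 and 0.20 against -0.50 and 0.42 over all kept genes. The sign of their median depended on the scaling: it was 0.01 when differences were centred on the median of all kept genes and 0.07 with the trend over intensity removed.

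Few members differed strongly. At least 1.5-fold lower in the knockout pool were 9 of the 69, beside 21.3% of all kept genes, and at least 1.5-fold higher were 4, beside 20.7%. As measured, a 2-fold difference was reached by 3 members on the lower side (9.14% of all kept genes), or 2 with dim values raised to the floor, and by 2 on the higher side (13.7% of all kept genes). The remaining 56 members were within 1.5-fold. Among genes that reached the floor on both arrays, 4 of 67 members (5.97%) and 16.8% of all 5464 genes differed by 2-fold or more.

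**Figure D1:**
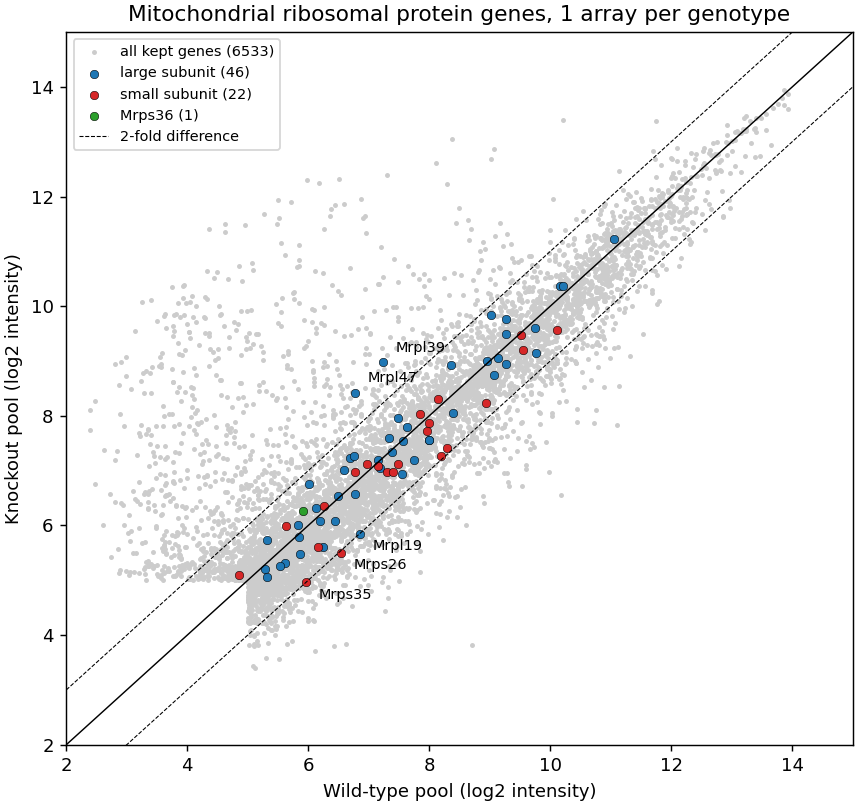
Log2 intensity of every kept gene in the wild-type pool (x axis) and the knockout pool (y axis), 1 array each. Grey points are all 6533 kept genes, coloured points the 69 mitochondrial ribosomal protein genes, and dashed lines mark a 2-fold difference, which Mrpl39 and Mrpl47 exceeded on the higher side while Mrps26, Mrps35 and Mrpl19 lay at the lower line.

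Mrpl39 and Mrpl47 had the highest differences, and Mrps26, Mrps35, Mrpl19, Mrps16 and Mrps7 the lowest. Promoters of both highest genes are given here with those of Mrps26, the lowest, and Mrps7, the fifth from the lowest. Mrps16, with several annotated starts, is not shown, nor are Mrps35 and Mrpl19. Each sequence runs from 250 bases before to 50 bases after the transcript start, in the direction of transcription, from RefSeq on GRCm38.p6. Capitals mark matches, on either strand, to core letters of the motifs of NRF1 (GCGCATG), Ets factors such as GABPA (CCGGAAG), YY1 (AAGATGG) and Sp1 (GGGCGG), and overlapping or adjoining matches run together. The windows are chr16:84735195-84735494, minus strand, for Mrpl39 and chr3:32736706-32737005, minus strand, for Mrpl47. Those of the lower genes are chr2:130563507-130563806, plus strand, for Mrps26 and chr11:115603890-115604189, plus strand, for Mrps7.
Mrpl39: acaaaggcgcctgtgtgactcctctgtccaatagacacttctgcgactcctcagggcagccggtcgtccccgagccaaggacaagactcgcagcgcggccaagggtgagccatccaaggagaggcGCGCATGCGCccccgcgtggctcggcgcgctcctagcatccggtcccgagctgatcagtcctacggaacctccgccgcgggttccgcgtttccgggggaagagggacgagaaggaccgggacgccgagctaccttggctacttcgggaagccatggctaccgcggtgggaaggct
Mrpl47: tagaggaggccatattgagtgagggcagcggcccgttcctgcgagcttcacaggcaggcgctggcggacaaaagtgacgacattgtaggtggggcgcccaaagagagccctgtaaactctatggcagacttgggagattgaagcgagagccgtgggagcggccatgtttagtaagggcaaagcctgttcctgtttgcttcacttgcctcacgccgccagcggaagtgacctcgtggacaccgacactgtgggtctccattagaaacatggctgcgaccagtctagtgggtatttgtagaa
Mrps26: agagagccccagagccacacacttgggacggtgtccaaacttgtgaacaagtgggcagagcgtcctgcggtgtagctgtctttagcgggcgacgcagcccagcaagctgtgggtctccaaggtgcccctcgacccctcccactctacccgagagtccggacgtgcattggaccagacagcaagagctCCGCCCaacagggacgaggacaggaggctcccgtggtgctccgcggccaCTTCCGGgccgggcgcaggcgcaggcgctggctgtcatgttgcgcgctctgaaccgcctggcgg
Mrps7: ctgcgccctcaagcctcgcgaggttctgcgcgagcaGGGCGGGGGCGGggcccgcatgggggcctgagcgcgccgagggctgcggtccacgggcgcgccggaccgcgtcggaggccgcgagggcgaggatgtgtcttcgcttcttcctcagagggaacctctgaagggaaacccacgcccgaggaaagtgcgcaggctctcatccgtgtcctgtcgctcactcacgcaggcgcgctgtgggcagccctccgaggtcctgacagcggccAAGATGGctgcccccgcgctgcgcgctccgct

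NRF1 and GABPA are known as activators of nuclear genes for mitochondrial proteins. Mrpl39 held 2 overlapping matches to the NRF1 letters, 1 on each strand, the first starting at position -125 from the transcript start. The Mrpl47 window held none of the 4 letter strings. The Mrps26 window held 2 matches, to the Sp1 and Ets letters, and that of Mrps7 held 3, to the Sp1 and YY1 letters. Promoters of 65 of the 74 member genes were in the table, 71 windows in all. The NRF1 letters were in 8 of them (11.3%), against 3.91% of all 32851 promoter windows and 7.11% of the 6938 windows of kept genes. Ets letters were in 24 (33.8%), against 8.86% and 17.9%, and YY1 letters in 12 (16.9%), against 6.34% and 7.55%. Sp1 letters were in 39 (54.9%), against 35.7% of all windows and 63.1% of those of kept genes. These are letter matches in a fixed window and carry no measurement of binding.

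Mrpl39 had the largest difference on the higher side. It encodes a large subunit protein of the mitochondrial lineage that resembles threonyl-tRNA synthetase. Its brighter probe set was at 151 in wild type and 503 in the knockout, 3.34-fold apart. Its second probe set was at 142 and 300, a log2 difference of 1.08 against 1.74 at the first. Both probe sets were therefore higher in the knockout pool by more than 2-fold, with different sizes.

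Mrpl47, the mitochondrial counterpart of bacterial ribosomal protein L29 at the exit of the peptide tunnel, was at 110 in wild type and 343 in the knockout. It was 3.12-fold higher in the knockout pool, on 1 probe set. Both genes kept a log2 difference above 1 under all 10 processing alternatives, with ranges of 1.41 to 1.88 for Mrpl39 and 1.51 to 1.78 for Mrpl47. Germ cell transcripts were higher in the same pool: all 23 germ cell markers measured were at least 2-fold higher. Their summed intensity was 4045 in wild type and 77550 in the knockout. In wild type 15 of them reached the floor, and in the knockout all 23. Their part in the values of Mrpl39 and Mrpl47 was not tested.

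The next genes on the higher side were Mrpl57, Mrpl54, Mrpl33 and Mrpl1. Mrpl57, a small protein of the large subunit found only in mitochondria, was at 523 and 912, 1.74-fold higher in the knockout pool. Mrpl54, also of the mitochondrial lineage, was at 64.9 and 108, a 1.66-fold difference. Both lay below 2-fold.

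Mrpl33 and Mrpl1 have bacterial counterparts. Mrpl33 was at 328 and 486 and Mrpl1, which forms the mobile stalk beside the site where spent tRNA leaves, at 104 and 150. Neither reached 1.5-fold with these values, at 1.48-fold and 1.45-fold, but both passed it when differences were centred (0.65 and 0.62 on the log2 scale, against 0.58 for 1.5-fold).

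On the lower side Mrps26, a small subunit protein of the mitochondrial lineage, was at 93.3 in wild type and 45.1 in the knockout, 2.07-fold lower. Mrps35, of the same kind, was at 62.5 and at 31.1, just below the floor, and so at least 1.95-fold lower. Mrpl19, whose bacterial counterpart sits at the interface of the subunits, was at 115 and 57.5, 2.00-fold lower. All 3 lay at the edge of the 2-fold threshold, and none reached it when differences were centred, when the intensity trend was removed, or with 16 added to each intensity.

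Mrps16 and Mrps7 followed. Mrps16, which in humans is mutated in a mitochondrial disease of infancy, was at 292 and 154, 1.89-fold lower in the knockout pool. Mrps7, a protein of the small subunit head that contacts the tRNAs, was at 314 and 169, 1.85-fold lower. Mrps24 was at 493 and 303 at its brighter probe set, 1.63-fold lower, but its second probe set differed by only -0.12. It was within 1.5-fold with probe sets averaged (-0.41) or the trend removed (-0.56). Each of these genes was lower in the knockout pool at every kept probe set.

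**Figure D2:**
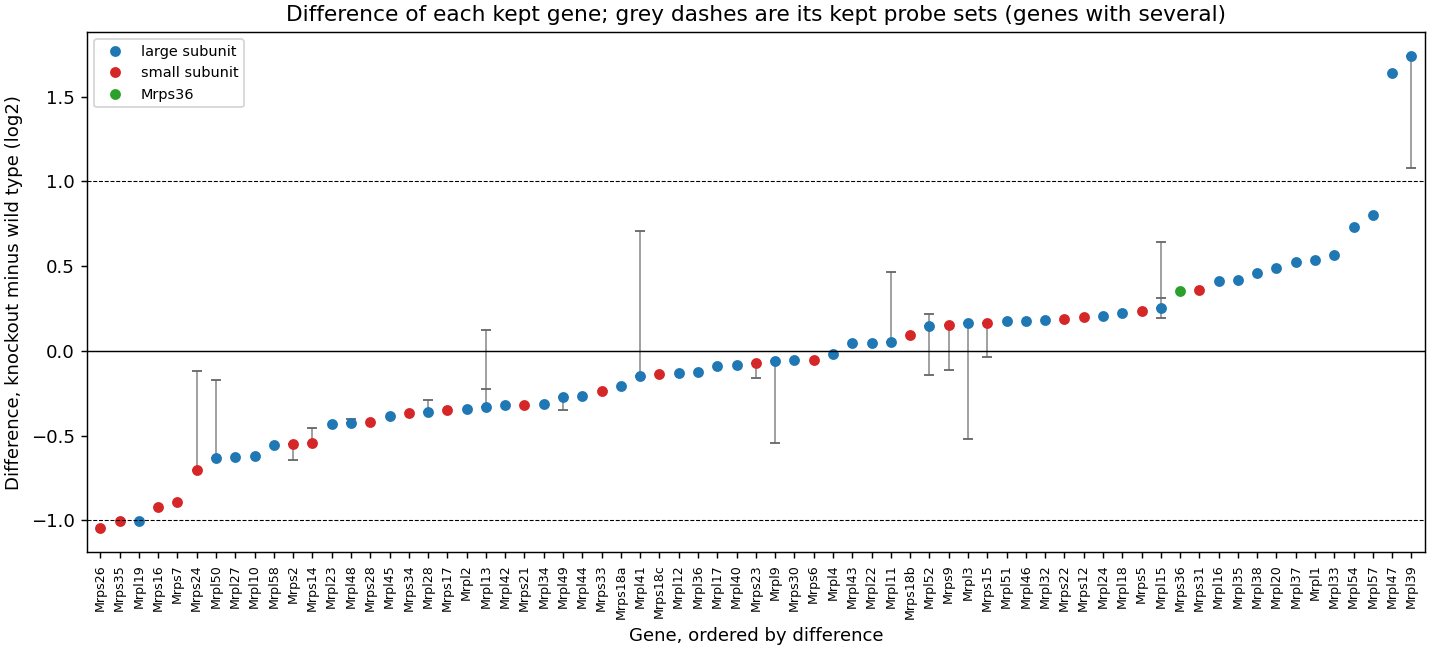
Log2 difference (knockout minus wild type) of the 69 kept genes on the y axis, ordered from lowest to highest on the x axis, with grey dashes for the single probe sets of genes with several. Dashed lines mark 2-fold, and the 6 lowest genes include 5 of the small subunit while the 6 highest are all of the large subunit. Of the 69 genes 46 are of the large subunit and 22 of the small. Dap3, a small subunit protein named otherwise (1.45), is not shown.

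By subunit, small subunit genes had a lower median than large subunit genes. Mrps18a and Mrps30 were counted with the large subunit, where their proteins are found, and Mrps36, now known as part of the oxoglutarate dehydrogenase complex, with neither. Of 46 kept large subunit genes 24 were lower (52.2%) and 22 higher, with a median of -0.03. Of 22 kept small subunit genes 15 were lower (68.2%) and 7 higher, with a median of -0.28, beside 55.5% lower and a median of -0.08 over all kept genes. At least 1.5-fold lower were 5 of 22 small subunit genes (22.7%) and 4 of 46 large subunit genes (8.70%), the first share being near the 21.3% of all kept genes. All 4 genes at least 1.5-fold higher were of the large subunit (8.70%), beside 20.7% of all kept genes. The difference between the subunits could not be tested with 1 array per genotype. Taken by symbol alone, the median of the Mrps genes was -0.21, and -0.03 with the intensity trend removed. Mrps36 itself was at 60.5 and 77.2.

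Within the small subunit, 7 proteins of the decoding region and the conserved core had a median of -0.55. All 12 kept small subunit genes with a bacterial counterpart had a median of -0.33, and all kept genes one of -0.08. The 7 were Mrps2, Mrps5, Mrps7, Mrps12, Mrps14, Mrps16 and Mrps24, grouped with earlier results known, and their median depends on that choice. Kept small subunit genes with a bacterial counterpart outside the group were Mrps6 (-0.05), Mrps9 (0.16), Mrps15 (0.16), Mrps17 (-0.35) and Mrps21 (-0.32). Mrps14, a conserved protein of the small subunit head, was at 1111 and 761, a log2 difference of -0.55 at this probe set and -0.45 at its other one. Mrps2 was at 71.2 and 48.7 and also lower at both of its kept probe sets. Mrps12, the protein next to the decoding site, went the other way, at 110 in wild type and 126 in the knockout. Mrps5, at 28.9 and 34.1, passed the floor in the knockout pool alone, so its fold is at least 1.06. The core proteins were thus not uniformly lower.

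The other small subunit genes lay within 1.5-fold. Mrps22, which in humans is mutated in a mitochondrial disease, was at 231 and 263, and Mrps31 at 49.4 and 63.3. Mrps28, Mrps17 and Mrps34 had log2 differences of -0.42, -0.35 and -0.36. Mrps21 and Mrps33 were at -0.32 and -0.24, and Mrps23 and Mrps6 at -0.07 and -0.05. Mrps9 and Mrps15 differed by 0.16 each at the probe set that represents them, and each had a second kept probe set with a negative difference.

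The 3 paralogs of bacterial protein S18 stayed close to one another. Mrps18a differed by -0.21, Mrps18b by 0.09 and Mrps18c by -0.14 on the log2 scale. Their intensities were 110 and 94.9 for Mrps18a, 76.4 and 81.5 for Mrps18b, and 256 and 233 for Mrps18c, wild type first. In each case the 2 pools were within 1.5-fold.

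In the large subunit, the stalk that recruits translation factors was represented by Mrpl10, Mrpl11 and Mrpl12. Mrpl10, the base of the stalk, was at 188 in wild type and 122 in the knockout, 1.54-fold lower. Mrpl12, which it carries, was at 146 and 133, and Mrpl11 at 497 and 515. Mrpl10 no longer reached 1.5-fold when differences were centred (-0.53), with the trend removed (-0.46) or with 16 added (-0.56). The other two were within 1.5-fold, although a further probe set of Mrpl11 differed by 0.47.

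Near the catalytic centre, Mrpl27, whose bacterial counterpart reaches towards the tRNA ends, was at 871 and 565, 1.54-fold lower, but within 1.5-fold when centred (-0.54) or with the trend removed (-0.46). Mrpl2 was at 338 and 267, and Mrpl16 at 97.0 and 129. Mrpl3, mutated in a human cardiomyopathy, was at 199 and 223 at its brighter probe set and at 110 and 76.3 at another. Its 2 kept probe sets therefore disagreed in sign (0.16 and -0.52), and the direction of Mrpl3 is not settled by these arrays.

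Around the exit tunnel the genes were split. Mrpl23 was at 254 and 189 and Mrpl45, which holds the ribosome to the inner membrane, at 58.0 and 44.4. Mrpl22 and Mrpl24 differed by 0.05 and 0.21 on the log2 scale. None of these 4 reached 1.5-fold. Mrpl47, at the exit of the same tunnel and described above, was not counted with them and was 3.12-fold higher.

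The central protuberance, which contacts the small subunit, was balanced as well, with 3 of 6 genes lower and a median of 0.05. Over all kept genes 55.5% were lower, with a median of -0.08. Mrpl58, a peptidyl-tRNA hydrolase that rescues stalled mitoribosomes, was at 216 and 147, 1.47-fold lower. Mrpl48 was at 255 and 190 and lower at both probe sets. Mrpl38 was at 180.0 and 248, 1.38-fold higher, and Mrpl18 and Mrpl46 differed by 0.22 and 0.18. Mrpl40 was at 39.2 and 37.0.

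By origin, 21 of 38 kept genes with a bacterial counterpart were lower (55.3%, median -0.06), as were 15 of 26 genes of the mitochondrial lineage (57.7%, median -0.08). Both shares are near the 55.5% of all kept genes. In the small subunit the medians of these classes were -0.33 over 12 genes and -0.24 over 7, and in the large subunit 0.01 over 26 and -0.05 over 19.

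The other large subunit genes filled the middle of the range. Mrpl50 was at 75.8 and 49.0, 1.55-fold lower, with a second probe set at -0.17. It was within 1.5-fold when centred (-0.55), with the trend removed (-0.50), with 16 added (-0.50) or with probe sets averaged (-0.40). Mrpl20 was at 619 and 871 and Mrpl37 at 108 and 155, both under 1.5-fold higher. Mrpl32, which the m-AAA protease must process before it joins the ribosome, was at 70.3 and 79.8. Mrpl51, Mrpl52 and Mrpl15 differed by 0.18, 0.15 and 0.25. The 4 kept probe sets of Mrpl15 ranged from 0.20 to 0.64. Mrpl44, an RNase III-like protein mutated in a human cardiomyopathy, was at 40.1 and 33.3. Mrpl13, Mrpl42, Mrpl34, Mrpl28 and Mrpl49 lay between -0.36 and -0.27.

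Between -0.15 and 0.04 lay Mrpl41, Mrpl36, Mrpl17, Mrpl9, Mrps30, Mrpl4 and Mrpl43, each at the probe set that represents it. Mrpl9 was at -0.06 there and at -0.55 at its other kept probe set, of similar brightness. Mrpl35 was at 39.8 and 53.1, a difference of 0.42. Mrpl41 was at 859 and 774 at its brighter probe set and at 129 and 211 at another, so that its sign turned when probe sets were averaged.

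Of the 127 member probe sets 91 reached the floor, and 18 genes had several that did. All kept probe sets pointed the same way for 12 of these (66.7%), beside 72.9% of 2137 such genes over the whole array. They disagreed for Mrpl3, Mrpl13, Mrpl41, Mrpl52, Mrps9 and Mrps15. None of these 6 reached 1.5-fold in either direction at the probe set that represents it. The dimmer kept probe set of Mrpl41 did, with a difference of 0.71. Between probe sets of the same gene the log2 difference varied with a median SD of 0.20 for members and 0.25 for all genes. The median size of a member's own difference, whatever its sign, was 0.32. The SD between probe sets comes from the same 2 arrays and does not measure variation between arrays or animals.

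The 5 genes below the floor on both arrays were Mrpl14, Mrpl21, Mrpl55, Mrps11 and Mrps25. At the probe set of highest mean of each, intensities lay between 15.5 and 26.7, and no fold is given for them. Probe sets naming several genes were no members. Those that include Mrpl30 and Mrpl53 differed by -0.12 and 0.15, and a further one shared with Mrps34 was below the floor.

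Kept members lay on 17 chromosomes. On chromosome 17, which carries Ppard, 6 kept members ranged from -0.36 (Mrps34) to 0.22 (Mrpl18). Ppard itself was at 6.58 and 6.27, below the floor in both pools, so it gives no check of the genotype. By their RefSeq starts, 24 members lie within 1000 bases of a gene that runs the opposite way, and in 4 of these pairs both genes were kept. Mrpl47 starts 308 bases from Ndufb5, a subunit of respiratory complex I. Ndufb5 was at 1857 and 1776, a difference of -0.06, beside 1.64 for Mrpl47.

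The remaining pairs differed less among members. Mrpl18 starts 238 bases from Tcp1, a subunit of the cytosolic chaperonin. Tcp1 was at 1058 in wild type and 3957 in the knockout, a difference of 1.90, beside 0.22 for Mrpl18. Psma2, a proteasome subunit opposite Mrpl32, differed by -0.17, and Fau, a ribosomal protein gene opposite Mrpl49, by 0.13. In each of the 4 pairs the genes had opposite signs or differed by over 1.5 on the log2 scale.

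Of 38 kept genes in 5 lists of partners of the mitoribosome, 11 (28.9%) differed by at least 1.5-fold in either direction, beside 42.0% of all kept genes and 13 of the 69 members (18.8%). As measured 9 of the 38 were higher and 2 lower by this much, where 20.7% of all kept genes were higher and 21.3% lower. With dim values raised to the floor, 7 were higher and 2 lower. The shares of all kept genes under that rule were not taken. Proteins of the mitoribosome named otherwise ranged from Ptcd3 (130 and 93.0) to Dap3, and Gadd45gip1, another of them, was at 37.6 and 62.1, 1.65-fold higher. Dap3, a GTP-binding protein of the small subunit, was at 248 and 677, 2.73-fold higher in the knockout pool, while small subunit members had a median of -0.28. Of 8 kept translation factors and partners 6 were lower (75%), beside 55.5% of all kept genes, and none reached 1.5-fold. Gfm2, which recycles the ribosome, was at 43.0 and 29.1, and Slirp, a stabiliser of mitochondrial mRNA, at 516 and 736. The elongation factor Gfm1 was at 154 and 117 and the initiation factor Mtif2 at 190 and 197.

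Assembly and rRNA modification factors had the widest range of these lists. Of 12 kept genes 5 (41.7%) differed by at least 1.5-fold in either direction, close to the 42.0% of all kept genes, and the median was -0.14. As measured 4 of the 12 were at least 1.5-fold higher (33.3%), beside 20.7% of all kept genes. Among these 4, Tfb1m, an rRNA methyltransferase, was at 18.5, below the floor, and 35.1. Its fold is at least 1.10, so 3 remain with the floor applied. Nsun4, an rRNA methyltransferase that joins the last step of assembly, was at 80.8 in wild type and 561 in the knockout, 6.94-fold higher. Dhx30, an RNA helicase, was 2.32-fold higher, at 140 and 325, and Mterf3, a regulator of mitochondrial transcription and ribosome assembly, 1.69-fold higher, at 184 and 311. At the lower end Rpusd4, a pseudouridine synthase, was at 50.2 and 32.6. Nsun4 and Dap3 were measured in the pool with the germ cell sum of 77550, whose part in them was not tested.

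Of 6 kept genes of mitochondrial tRNA charging 3 were lower, with a median of -0.01, beside 55.5% lower and a median of -0.08 over all kept genes. Iars2, the isoleucyl-tRNA synthetase, was at 245 and 94.9, 2.59-fold lower, and Fars2, the phenylalanyl-tRNA synthetase, at 38.2 and 73.9. Of 8 kept genes of mitochondrial DNA upkeep and its regulators 5 were lower (62.5%), with a median of -0.27, against the same 55.5% and -0.08. Tfam, which packages mitochondrial DNA, was at 170 and 203. Tfb2m, a mitochondrial transcription factor, was at 39.6 and 27.0, and Gabpb1 at 20.2 and 35.7, each with 1 value below the floor.

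**Figure D3:**
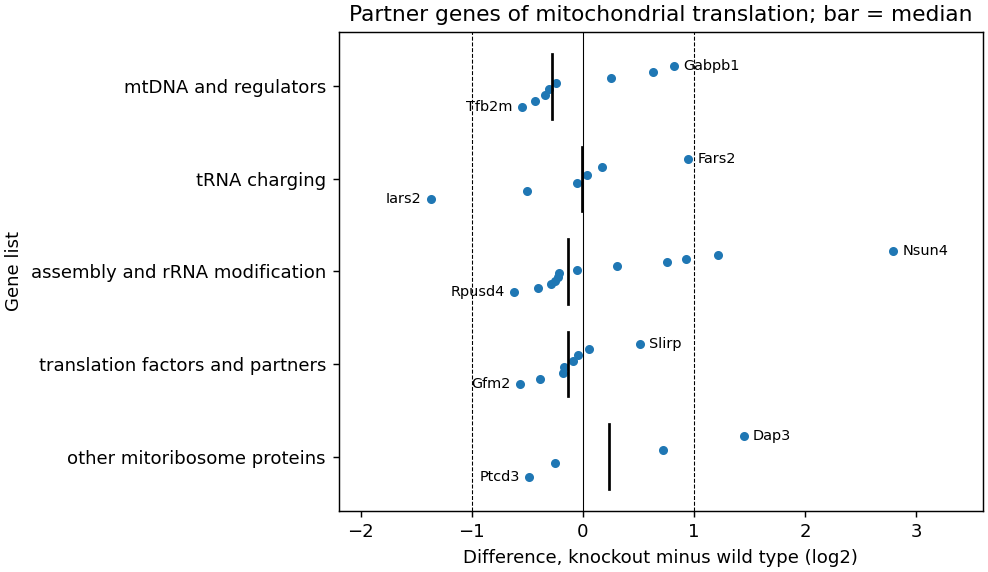
Log2 difference (knockout minus wild type, x axis) of the kept genes of 5 lists of mitochondrial translation partners (y axis), 1 point per gene, with a bar at each list's median and dashed lines at 2-fold. Nsun4, Dap3 and Dhx30 lie beyond 2-fold on the higher side and Iars2 on the lower side.

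Set beside the cytosolic ribosome and the respiratory chain, the mitoribosomal genes had a wider interquartile range. Most of them were also dimmer, and spread was not compared at equal intensity. Of 36 kept cytosolic ribosomal protein genes 15 were lower, the median was 0.01 and the quartiles were -0.07 and 0.07. Respiratory chain subunits, which assemble around the products of the mitoribosome, were lower in 55 of 74 cases (74.3%), with a median of -0.23, beside 55.5% and -0.08 over all kept genes. This list held Cox6b2 and Cox8c, testis forms of cytochrome oxidase subunits, which differed by 4.87 and 3.42. Without them 55 of 72 were lower, the median was -0.24 and none reached 2-fold. With 1 array per genotype these differences between gene groups were not tested. The mitoribosomal median differed in sign between scalings, as given above, and that of -0.07 lay between those of both groups.

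**Figure D4:**
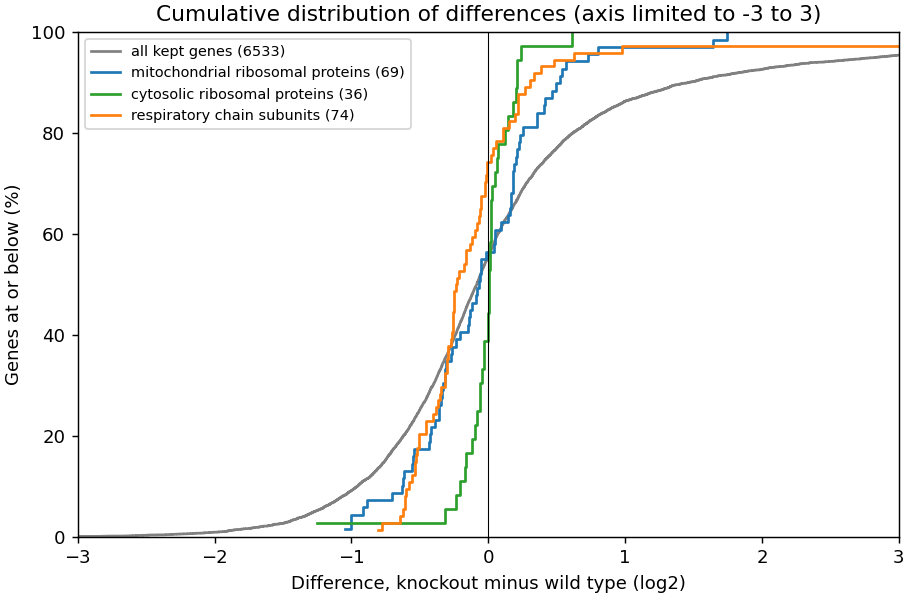
Share of genes (y axis, percent) at or below each log2 difference (x axis, knockout minus wild type) for all 6533 kept genes, 69 mitochondrial ribosomal, 36 cytosolic ribosomal and 74 respiratory chain genes. The cytosolic curve is the steepest, the respiratory chain curve lies to the left around 0, and the mitoribosomal curve crosses 0 near that of all genes.

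The median differences of the adipocyte, macrophage and endothelial marker lists were each lower than that of the members, -0.07. Of 13 adipocyte markers, all at or above the floor in both pools, 12 were lower in the knockout pool, with a median of -1.16. All 13 macrophage markers were lower, with a median of -0.86, and 7 of 8 endothelial markers, with a median of -0.96. Of 8 epididymis markers 7 were higher, with a median of 0.32. Over all kept genes 55.5% were lower, with a median of -0.08. Summed intensities, wild type first, were 65633 and 42470 for adipocyte, 5898 and 3527 for macrophage, 1160 and 619 for endothelial and 48471 and 55415 for epididymis markers. The endothelial sums cover 10 measured markers, and the median the 8 kept. Mitoribosomal genes are used by all of these cells, and the part of cell composition in their values was not tested.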

How the data were processed

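Pooled RNA of 2 groups was profiled, 1 pool per genotype, labelled with biotin after TRIzol extraction per the labels' protocols. The array named in the design text is a larger one than that of the annotation used here. The deposited values are probe set intensities on a linear scale (1.91 to 36322) that the authors made with GCRMA 2.20, per the submitters' processing notes. No source used here says which arrays shared the normalisation. GCRMA equalises the distribution between arrays, so a change shared by most genes would be removed, and it draws dim probe sets together, which affects folds near the floor.

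Values were taken to log2, and probe sets naming several genes or none were left out. Symbols follow GRCm38.p6 gene records by Entrez identifier, which matched all 74 members. Genes below log2 5 on both arrays were dropped and the brightest kept probe set represented a gene. Folds against a value below the floor set that value to 32. Members, lists and comparisons were chosen with earlier results of these data known, and structural classes come from general knowledge of the mitoribosome. Members with values are the 6 highest, the 6 lowest, those with disagreeing probe sets, those at the floor on 1 array, and those of known role. From each partner list the lowest and highest gene are named, and any further gene was chosen after its values were seen. Scripts ran in Python 3.11.15 with pandas 2.3.3, numpy 2.4.6 and statsmodels 0.14.6, and were tested on simulated data. The alternatives were other floors, centring, removal of the intensity trend (lowess, fraction 0.3), averaging of probe sets, omission of shared-sequence probe sets, dim values set to the floor, and 16 added to intensities.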

Additional observations from a re-analysis of the deposited data

How the results depend on the processing

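Mrpl39 and Mrpl47 stayed at least 2-fold higher under all 10 alternatives, most of which cannot alter a gene with 1 probe set such as Mrpl47. On the lower side the count of 2-fold members fell from 3 to 0 when differences were centred, when the intensity trend was removed and with 16 added to each intensity. It was 2 with a floor of log2 6, with the floor on both arrays and with dim values set to the floor, where Mrps35 was dropped or gave only a bound. The count of members at least 1.5-fold lower was 5 with the intensity trend removed, against 9, and that of members at least 1.5-fold higher was 7 when centred and 10 with the trend removed, against 4. Centring changes these counts by construction, since it adds 0.08 to every difference. The median of all members ranged from -0.09 (probe sets averaged) to 0.07 (trend removed), and that of the Mrpl genes from -0.02 (floor of log2 4 or none) to 0.17 (trend removed). The median of the Mrps genes stayed negative, from -0.22 (floor of log2 6) to -0.03 (trend removed). Of the 13 members past 1.5-fold, 9 were past it in every alternative that gave a value, and none changed sign. Mrpl10, Mrpl27, Mrpl50 and Mrps24 were within 1.5-fold in at least 1. Of 673 single-gene values under alternatives, 666 moved by less than 0.25, the median SD between probe sets of 1 gene. Many of them could not move. For a gene with 1 probe set above the floor on both arrays, only centring, trend removal and the added 16 can change the value. Centring adds 0.08 to each. The count is therefore no measure of precision. No paired analysis was possible because each genotype has 1 array. Precision is limited by the number of arrays, and no replicate could be left out.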
